A study of Mus musculus with 4 samples.

Results

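The interferon response and the machinery that loads peptides onto MHC class I molecules were followed through muscle regeneration with 31 genes. Members were chosen by name, and each was read from the probe sets that the platform annotation assigns to that 1 gene symbol. This gave 40 probe sets for 29 of the 31 genes, out of 12394 named genes on the array. Psme2 and Isg15 had no probe set with a single symbol and carry no value here. Mx1, an antiviral GTPase that is defective in most laboratory mouse strains, lay under the floor of measurement on every array, which leaves 28 genes with a signal on at least 1 array.

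The cells were myogenic, purified from the hind limbs of 8- to 12-week-old C57BL/6 mice, taken 2, 3, 5 and 14 days after cardiotoxin was injected. This venom protein kills muscle fibres, which then regenerate. All 4 groups carry the injury, uninjured muscle is not analysed here, and the cells were not cultured. Each day was measured on 1 Affymetrix mouse 430A array, so there is no replicate, no p-value is given, and genes are described by the size of the difference between 2 arrays. For the purification the labels give the antibody SM/C-2.6, and the sources used here do not give the number of animals behind a sample.

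Interferons are secreted alarm proteins. Type I interferons and interferon gamma bind their receptors, activate the JAK kinases and STAT factors, and switch on a shared set of genes through 2 kinds of DNA element, the interferon-stimulated response element (ISRE) and the gamma-activated site (GAS). Part of these genes block viral replication, and part of them raise the display of peptides on the cell surface: the immunoproteasome cuts proteins, the TAP transporter carries the peptides into the endoplasmic reticulum, tapasin helps to load them, and beta-2 microglobulin completes the class I molecule. In regenerating muscle, infiltrating immune cells release interferon gamma and other cytokines, and resting muscle fibres carry little class I.

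Signals are the deposited MAS5 signals in arbitrary units, with every array scaled to the same trimmed mean. The median over all arrays after scaling, 43.0, served as the floor of measurement: lower signals took its value, and ratios with 1 side there are bounds, written as at least N-fold. A gene was called higher or lower at 2-fold, a log2 ratio of 1. Of the named genes, 7930 exceeded the floor on 1 array or more. Where a gene had several probe sets, their log2 ratios differed with an SD of 0.32 to 0.37 in the 3 consecutive comparisons and of 0.55 over the whole course, and the spread between animals or labellings is not in these values. Of 16 myogenic markers with a probe set, 12 to 15 were above the floor on each day. Myod1, the myoblast determination factor, read 2272, 1405, 500.2 and 935 on days 2, 3, 5 and 14, and Pax7, the satellite cell factor, was under the floor on day 2 and read 59.4, 217 and 323. All 16 lymphocyte and NK cell markers and all 10 neutrophil markers with a probe set, the T cell gene Cd3e among them, lay under the floor on every day.

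Over the whole course most genes of the group ended higher than they began. On day 14, 23 of the 31 genes were at least 2-fold higher than on day 2, none was lower, 5 were not past 2-fold (Psmb10, Psme1, Irf1, Stat2 and Ifit2), 1 was under the floor on both arrays and 2 had no usable probe set. Of all 7668 genes measured in this comparison, 22.8% were called higher and 14.8% lower. The median log2 ratio was 1.83 over the 28 measured members and 0.20 over all measured genes. A gene that is measured only because it is above the floor on day 14 can only be higher, and 16 of the 28 were of that kind, 15 of them called, against 44.3% of all such genes. The 12 members already above the floor on day 2 are free of this: 8 of them were called higher and none lower, against 18% called higher among the 6258 genes above the floor on day 2. Of these 12, 4 were higher and 1, Psmb10, was lower with the arrays scaled to a common median, where the calls of Bst2, Ifitm3, Ifi35 and Rsad2 were lost. Over all members, 18 to 23 were higher and at most 1 lower under the 3 other scalings, 15 were higher at 3-fold, and 10 were higher with the floor raised to 110.3. In RNA from a purified population, more cells with a transcript and more transcript per cell cannot be told apart.

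Of the 3 consecutive steps, day 5 against day 3 held the most calls, except with no floor and 16 added to every signal, where 11 members were higher at that step and 13 higher and 1 lower on day 3 against day 2. On day 3, 4 members were higher than on day 2 (Tap2, Tapbp, Igtp and Ifih1) and 1, Irf1, was lower, with 6.69% of all measured genes called higher and 1.8% lower. This count depends on the floor, since 12 of the 24 measured members were under it on day 2: 16 were higher with a floor of 9.97, and 1 with a floor of 110.3. Of the 12 members above the floor on day 2, 2 were higher, against 5.61% of such genes, and of the 12 that were under it, 2 were higher, against 16%. On day 5, 15 members were higher than on day 3 and none lower, against 11.6% and 5.97% of all genes, with a median log2 ratio of 1.07 for the 27 measured members and 0.06 for all genes. Of the 24 members above the floor on day 3, 14 were higher on day 5, against 10.4% of such genes, and of the 3 that were under it, 1 was, against 24.7%. With a common median or quantile normalization 11 members were higher, the calls of Psmb9, Igtp, Irf7 and Nmi, at 2.09-fold to 2.27-fold, being lost. On day 14, 4 members were higher than on day 5 (Iigp1, Irgm1, Usp18 and Ifit2) and none lower, against 4.81% and 3.1% of all genes, and the median log2 ratio was 0.54 for the 28 measured members and 0.01 for all genes. All 4 were above the floor on day 5, as were 27 members, against 4.33% of such genes called higher. The members above the floor numbered 12, 24, 27 and 28 on days 2, 3, 5 and 14. Neighbouring comparisons have 1 array in common and are not independent of each other. The labels of days 2 and 5 are worded alike and differ from those of days 3 and 14. Each of the 3 consecutive steps, and day 14 against day 2, sets a day of 1 pair against a day of the other. There, a difference between the pairs cannot be told apart from a difference between days. Within these pairs, set side by side after the data were seen, 20 members were higher on day 5 than on day 2 and none was lower, against 19.8% and 11.4% of all genes. On day 14, 18 were higher than on day 3 and none was lower, against 16.3% and 11.5% of all genes. Of members above the floor on the earlier day, 7 of 12 were higher on day 5 than on day 2 (16% of such genes) and 15 of 24 on day 14 than on day 3 (14%). Of those under it, 13 of 15 were higher on day 5 than on day 2 (39.5%) and 3 of 4 on day 14 than on day 3 (33.9%).

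**Figure D1:**
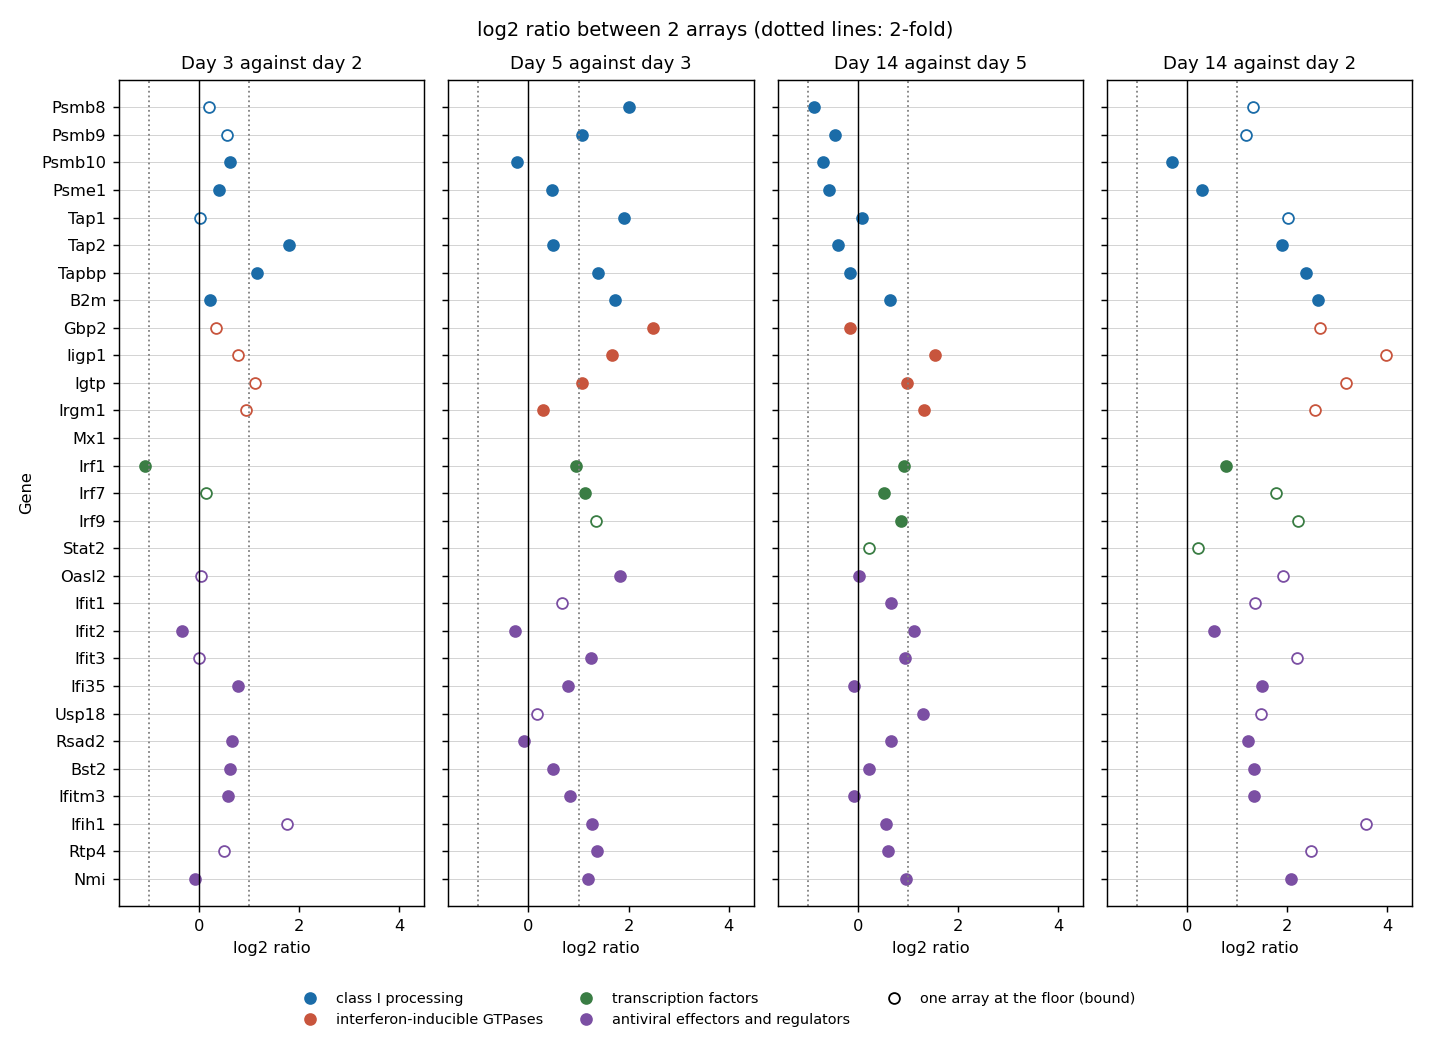
log2 ratios of the 29 genes with a probe set (rows, coloured by role) in 4 comparisons of 2 arrays, later over earlier; open circles have 1 array at the floor and are bounds, dotted lines mark 2-fold, and a gene with no circle was under the floor on both arrays. Most points lie right of 0, with 23 genes past 2-fold for day 14 against day 2 and Irf1 alone past 2-fold lower, on day 3 against day 2.

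Stretches of the members' promoters are printed here because they hold the letters of the 2 elements through which interferons act. The ISRE was searched as TTTC, any 2 bases and TTTC again, and the GAS as TTCNNNGAA, on both strands, in the 250 bases upstream of the transcript starts in the RefSeq promoter table (GRCm38.p6), where 26 of the 31 members have an entry. An ISRE stood in 10 of these 26 genes (38.5%), against 3.46% of all 27025 genes in the table. A GAS stood in 5 of the 26 (19.2%), in Irf1, Psmb8, Igtp, Ifit2 and Bst2, against 8.13% of all genes. Igtp and Bst2 held both, and in Bst2 the 2 matches overlapped. The members were picked as interferon genes, so these shares describe them and are no independent result, and a match is not a site shown to be bound. Capitals mark the ISRE in 7 members, on the strand of the gene, where GAAA repeats are the same element read on the other strand:
Ifit1 (chr19:34640765-34640833, plus strand): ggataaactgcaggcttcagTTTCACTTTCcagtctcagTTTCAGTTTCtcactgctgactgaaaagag
Ifit3 (chr19:34583353-34583436, plus strand): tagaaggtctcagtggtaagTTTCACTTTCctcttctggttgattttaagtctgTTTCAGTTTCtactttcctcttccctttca
Gbp2 (chr3:142620584-142620633, plus strand): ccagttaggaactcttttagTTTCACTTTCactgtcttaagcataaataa
Igtp (chr11:58199502-58199551, plus strand): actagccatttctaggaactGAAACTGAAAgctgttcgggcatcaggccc
Irgm1 (chr11:48871421-48871470, minus strand): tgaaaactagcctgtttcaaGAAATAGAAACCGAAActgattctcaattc
B2m (chr2:122147528-122147577, plus strand): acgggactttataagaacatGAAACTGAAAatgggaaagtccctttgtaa
Bst2 (chr8:71537567-71537622, minus strand): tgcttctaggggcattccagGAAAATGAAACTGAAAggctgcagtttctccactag
The windows differ in the number of elements and in where they lie. Ifit1 and Ifit3 hold 2 separate copies between 76 and 156 bases upstream of the start, Irgm1 and Bst2 hold 2 overlapping copies, and Gbp2, Igtp and B2m hold 1. In the GAS windows of Irf1 and Psmb8 the capitals mark TTCNNNGAA:
Irf1 (chr11:53769904-53769952, plus strand): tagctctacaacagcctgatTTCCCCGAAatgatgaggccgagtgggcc
Psmb8 (chr17:34198078-34198126, plus strand): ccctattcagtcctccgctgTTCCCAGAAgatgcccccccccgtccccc
Psmb9 and Tap1 are neighbours on chromosome 17 and are transcribed away from each other, with 225 bases between the 2 starts. The stretch is printed because it lies between the starts of 2 members that were both called higher on day 5 against day 3, and capitals mark a GC box (GGGCGG, here on the other strand, a motif found upstream of 35.4% of all genes). Neither the ISRE nor the GAS letters occurred in it, which says nothing about what binds there:
Psmb9 to Tap1 (chr17:34187331-34187555, plus strand): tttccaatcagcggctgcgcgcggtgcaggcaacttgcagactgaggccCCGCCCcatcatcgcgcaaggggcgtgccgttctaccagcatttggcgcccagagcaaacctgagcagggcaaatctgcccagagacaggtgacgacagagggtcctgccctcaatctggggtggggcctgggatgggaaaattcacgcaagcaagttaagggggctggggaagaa
Of the 9 measured members with an ISRE in the window, 8 were called higher on day 14 against day 2, the exception being Stat2, with a median log2 ratio of 2.20. Of the 15 without, 11 were called higher, with a median of 1.5. Of all genes 22.8% were called higher. Gbp2, Igtp, Irgm1, Ifit1, Ifit3 and Stat2, with the element, were under the floor on day 2 and could only come out higher. So were Psmb8, Psmb9, Tap1, Irf7, Irf9, Oasl2 and Ifih1, without it. Of all such genes 44.3% were called, and both medians mix bounds with measured ratios. On day 5 against day 3, 4 of 8 measured with and 9 of 15 without the element were higher, against 11.6% of all genes. Whether the element bears on the ratios was not tested.

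All 8 class I processing genes with a probe set were above the floor on day 3. Higher on day 5 than on day 3 were 5 of them, against 10.4% of such genes. None was past 2-fold on day 14 against day 5, where 4.81% of all genes were called higher and 3.1% lower. Psmb8, the immunoproteasome subunit LMP7, was under the floor on day 2 and read 49.2 on day 3, 198 on day 5 and 108 on day 14. Psmb9, the subunit LMP2, was under the floor on day 2 and read 63.3, 133 and 97.3 on days 3, 5 and 14. Psmb10, the third inducible subunit, read 183, 282, 240.0 and 148 on days 2, 3, 5 and 14. The 3 subunits are built into the same particle and their ratios differed: Psmb8 was 4.02-fold and Psmb9 2.11-fold higher on day 5 than on day 3, while Psmb10 had a log2 ratio of -0.23 and was highest on day 3. Psme1, a subunit of the PA28 cap that opens the proteasome, read 368, 485, 673 and 451 and was called in none of the 4 comparisons.

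The transport and loading genes differed more. Tap1, a chain of the peptide transporter, was under the floor on day 2, barely above it on day 3 at 43.3, and read 162 on day 5 and 173 on day 14, 3.75-fold higher on day 5 than on day 3. The other 3 probe sets assigned to Tap1 lay under the floor on every array, and with the mean over its probe sets Tap1 did not pass 2-fold. Tap2, the partner chain, read 53.2, 185, 259.5 and 197 on days 2, 3, 5 and 14. It was 3.47-fold higher on day 3 than on day 2 and 1.41-fold higher on day 5 than on day 3, while the ratio of Tap1 on day 3 over day 2 is only a bound. Tapbp, which encodes tapasin, read 134, 300.1, 783 and 700.3, and was 2.23-fold higher on day 3 than on day 2 and 2.61-fold higher on day 5 than on day 3. The day 3 call of Tapbp was lost under each of the 3 other scalings, and its second probe set was above the floor on days 5 and 14 alone, at 71.3 and 82.6. B2m, beta-2 microglobulin, read 791, 925, 3061 and 4813, and its second probe set 510.0, 799, 1827 and 2109. Both probe sets of B2m were highest on day 14, with 6.08-fold and 4.14-fold higher signals than on day 2.

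**Figure D2:**
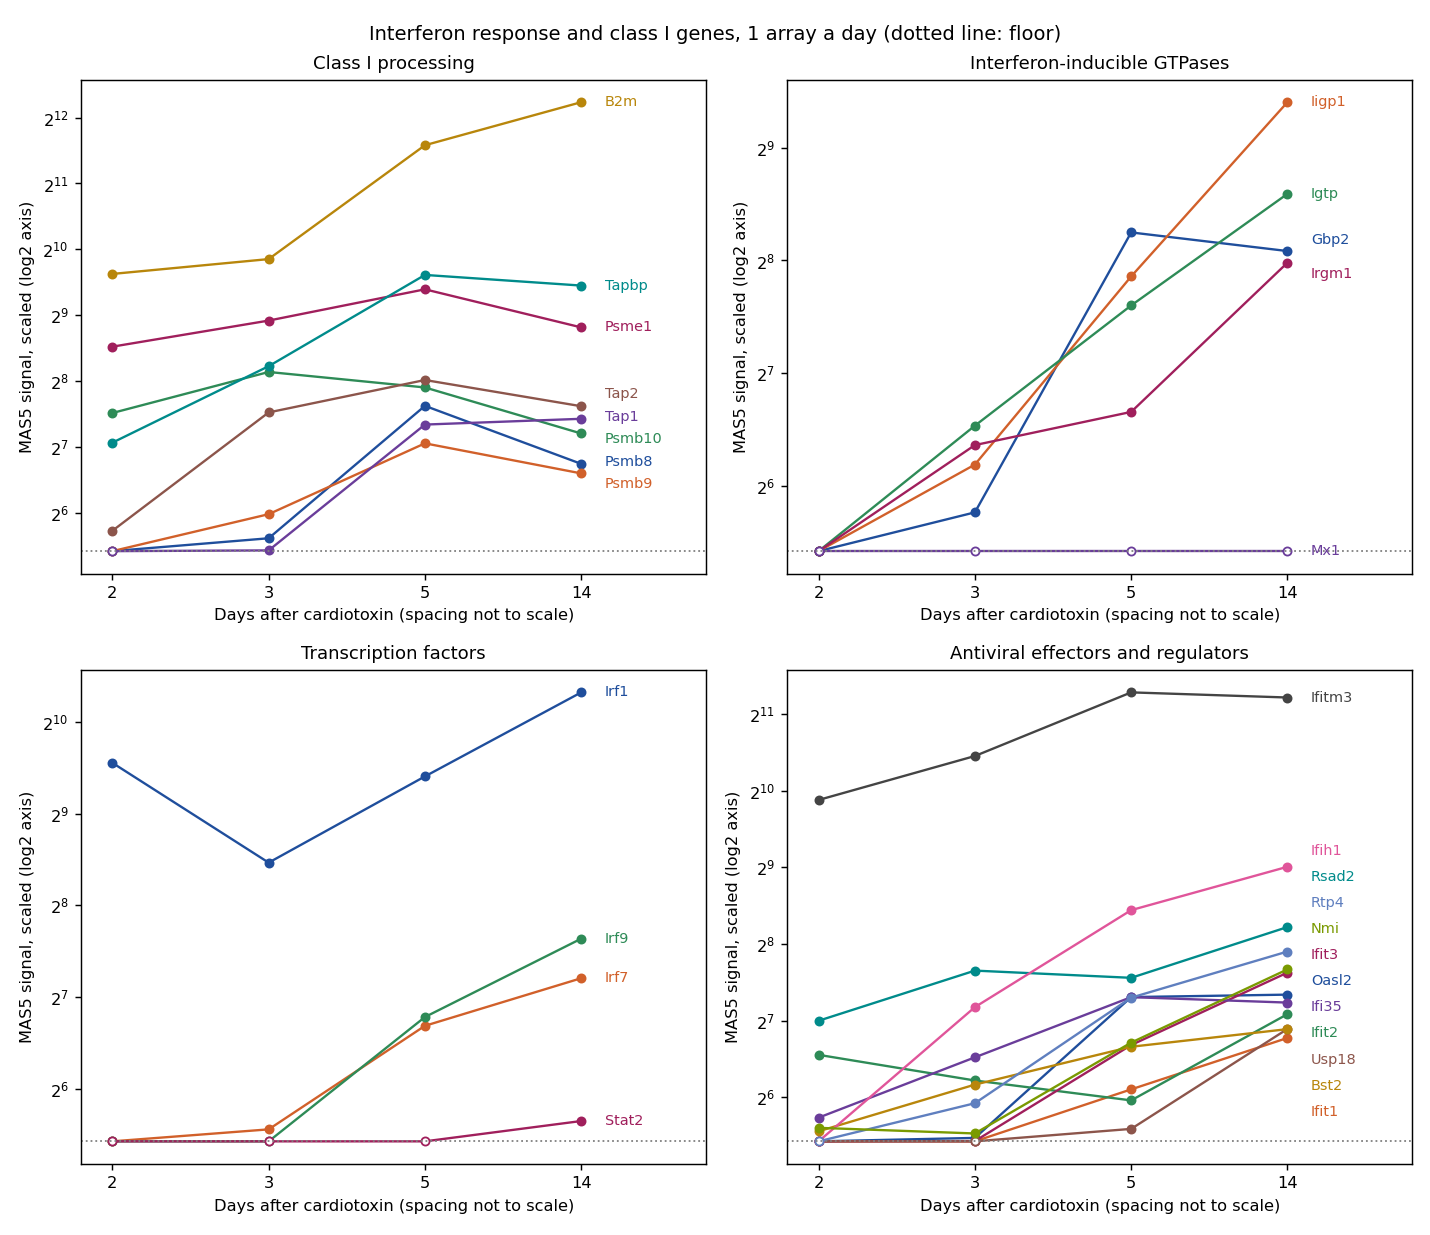
Scaled MAS5 signal (log2 axis, arbitrary units) of the 29 genes with a probe set on the arrays of days 2, 3, 5 and 14, in 4 panels by role; open circles are values under the floor of 43.0 (dotted line), drawn at the floor. Levels of different genes come from different probe sets and are not compared. Of the 8 class I processing genes 6 are lower on day 14 than on day 5, none past 2-fold, while Iigp1, Igtp and Irgm1 go on to higher signals on day 14.

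Class I processing genes and the other members differed in the day of their highest signal. Of the 8 class I processing genes, 5 were highest on day 5, 2 on day 14 (Tap1 and B2m) and 1 on day 3 (Psmb10), and 6 of the 8 were lower on day 14 than on day 5 without passing 2-fold, with a median log2 ratio of -0.43. Of the 20 other members above the floor, 17 were highest on day 14 and 3 on day 5 (Gbp2, Ifi35 and Ifitm3), and no member was highest on day 2. Among all 7930 genes that exceeded the floor, 20.5% were highest on day 5 and 35.9% on day 14. Under the 3 other scalings, 5 to 7 of the 8 class I processing genes and 3 or 4 of the others were highest on day 5, and with a common median 2 of the others were highest on day 2. With a single array a day this is a description of 4 arrays, and several of the gaps are small: Tap1 was 1.06-fold higher and Tapbp 1.12-fold lower on day 14 than on day 5.

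Genes of the standard proteasome had lower signals on later days. When Psmb8, Psmb9 and Psmb10 are made, they take the places of the catalytic subunits encoded by Psmb5, Psmb6 and Psmb7 in newly built proteasomes. Psmb5 read 3469.6, 3180.0, 1891 and 1317 on days 2, 3, 5 and 14, 2.63-fold lower on day 14 than on day 2. Psmb6 was 2.07-fold lower on day 14 than on day 2, and Psmb7 was 1.49-fold lower. Of 17 genes for the standard proteasome core, its assembly factor and caps, 8 were lower on day 14 than on day 2. None was higher and 9 were not past 2-fold, with a median log2 ratio of -0.99. Of all measured genes 14.8% were lower and 22.8% higher. With quantile normalization 4 of the 17 were lower, against 16.8% of all genes. As deposited 7 were lower, against 14.2%, and with a common median 17, against 36%. None was higher under these 3 scalings. Psme3, the nuclear relative of Psme1 that interferon does not induce, was 4.70-fold lower, at 227 on day 14 against 1064 on day 2. On day 5 against day 3, 3 of the 17 were lower (Psme3, Psma7 and Psma1) and none higher, against 5.97% and 11.6% of all genes. On day 14 against day 2, the direction is therefore opposite for Psmb8 with Psmb5 and for Psmb9 with Psmb6. The Psmb9 call was lost with a common median and with quantile normalization. Psmb10 and Psmb7 had the same direction, with log2 ratios of -0.31 and -0.58, neither past 2-fold. On day 14 against day 5, both genes of the first 2 pairs were lower, none past 2-fold. Their log2 ratios were -0.88 for Psmb8, -0.52 for Psmb5, -0.46 for Psmb9 and -0.20 for Psmb6.

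**Figure D3:**
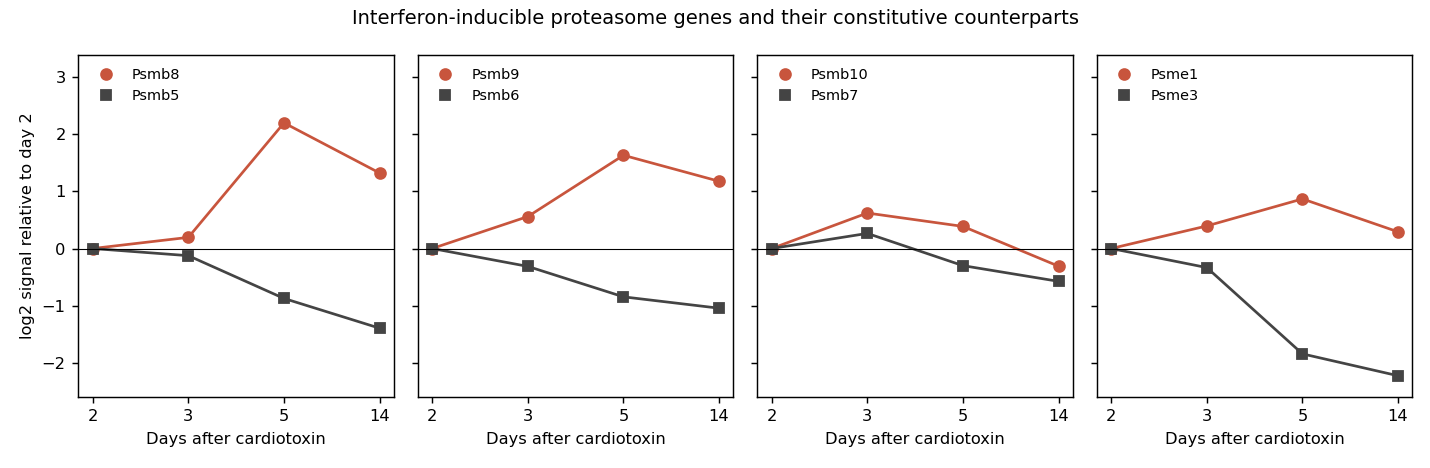
log2 signal relative to day 2 on the arrays of days 2, 3, 5 and 14 for interferon-inducible proteasome genes (circles) and their constitutive counterparts (squares); days are not spaced to scale, and for Psmb8 and Psmb9 day 2 is at the floor, so that their later values are lower bounds. Psmb8 and Psmb9 lie above 0 from day 3 on while Psmb5 and Psmb6 lie below it, Psmb10 and Psmb7 stay within 2-fold of day 2, and Psme3 reaches -2.23.

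Among the heavy chains that B2m pairs with, H2-K1 and H2-D1 were highest on day 14. H2-K1 read 781, 582, 1468 and 3143 on days 2, 3, 5 and 14. H2-D1 read 586, 564, 1299 and 2234. Both were at their lowest on day 3 and at their highest on day 14, 4.03-fold and 3.81-fold above day 2. Of the 15 class I heavy chain and loading genes with a probe set, 10 were measured on day 14 against day 2. Called higher were 5 and lower none, against 22.8% and 14.8% of all genes, and 5 were under the floor on both arrays. All 5 called were among the 8 above the floor on day 2, against 18% of such genes. After scaling to a common median 4 were higher and 1 lower, against 11.1% and 36% of all genes. H2-M3 (4.02-fold), Rfx5, a transcription factor of MHC genes (3.99-fold), and the class I-like Cd1d1 (2.38-fold) were the other 3 called higher. Cd1d1 was highest on day 5, at 212, and read 176 on day 14. Class I heavy chain sequences are so alike that a probe for 1 can read its relatives. The general chaperones of the endoplasmic reticulum, Calr, Canx and Pdia3, were not past 2-fold in any of the 4 comparisons.

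Of the 5 GTPases induced by interferon, Mx1 was not measured. The other 4 were all higher on day 14 than on day 2, with a median log2 ratio of 2.91. All 4 were under the floor on day 2 and could only come out higher, so that these ratios are bounds. Of all such genes 44.3% were called. Iigp1, an immunity-related GTPase that attacks the vacuoles of intracellular parasites, was under the floor on day 2 and read 73.1, 232 and 677 on days 3, 5 and 14. It was at least 15.8-fold higher on day 14 than on day 2, with a step past 2-fold on day 5 (3.17-fold) and again on day 14 (2.92-fold). Its second probe set was above the floor on those 2 days, at 67.6 on day 5 and 167 on day 14, and gave at least 3.89-fold over day 2. Igtp, a relative that guards the others from acting on the cell's own membranes, was under the floor on day 2 and read 92.8, 194 and 385, at least 8.97-fold higher on day 14 than on day 2. Irgm1, another such regulator, was under the floor on day 2 and read 82.4, 101 and 253, with a ratio past 2-fold on day 14 over day 5 (2.50-fold) and not on day 5 over day 3 (1.23-fold). Gbp2, a guanylate-binding protein, was under the floor on day 2 and read 54.5, 304 and 271 on days 3, 5 and 14. Its 5.58-fold ratio on day 5 over day 3 was the largest of any member at that step, its second probe set gave at least 6.50-fold, and neither probe set was higher on day 14 than on day 5.

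The transcription factors of the response differed among themselves. Irf1, which interferon gamma and other cytokines induce rapidly, read 752, 354, 679 and 1282 on days 2, 3, 5 and 14. It was the single member called lower at any step, 2.13-fold on day 3 against day 2, and was 1.70-fold higher on day 14 than on day 2. Irf7, the factor that amplifies type I interferon, was under the floor on day 2 and read 47.0, 103 and 148, 2.19-fold higher on day 5 than on day 3. Irf9, which joins STAT proteins in the complex that binds the ISRE, was under the floor on days 2 and 3 and read 110.0 on day 5 and 199 on day 14. Stat2, its partner, was above the floor on day 14 alone, at 50.1, and its second probe set never was. On day 2 Irf1 was the single factor of the 4 above the floor.

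Of the 12 antiviral effectors and regulators with a probe set, 11 were higher on day 14 than on day 2, against 22.8% of all genes. The 6 under the floor on day 2 could only come out higher, and all 6 were called, against 44.3% of such genes. Among the 6 above it, 5 were higher, against 18%. On day 5, 5 of the 12 were higher than on day 3, against 11.6% of all genes. All 5 were among the 10 above the floor on day 3, against 10.4% of such genes. Ifih1, which encodes the RNA sensor MDA5, was under the floor on day 2 and read 144, 347 and 514 on days 3, 5 and 14, at least 12.0-fold higher on day 14 than on day 2. It was the single gene of this role past 2-fold on the first step, at least 3.36-fold higher on day 3 than on day 2. Rtp4, an interferon-induced transmembrane protein, was under the floor on day 2 and read 60.6, 157 and 239, at least 5.56-fold higher on day 14 than on day 2, although its other probe set stayed under the floor. Oasl2, of the oligoadenylate synthetase family, was under the floor on day 2 and read 44.3, 158 and 162. It reached its level between days 3 and 5, 3.57-fold, and was within 1.02-fold of it on day 14.

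The IFIT proteins, which bind viral RNA, are encoded by neighbouring genes on chromosome 19, and their signals did not run together. Ifit1 was under the floor on days 2 and 3 and read 68.7 on day 5 and 109 on day 14. Ifit3 was under the floor on day 2 and read 43.1, 103 and 197 on days 3, 5 and 14. Ifit2 read 93.9, 74.5, 62.2 and 136 on days 2, 3, 5 and 14. Ifit2 was thus measurable from the start and had its lowest signal on day 5, the day on which Ifit1 and Ifit3 were already above the floor, and it was 2.18-fold higher on day 14 than on day 5. In the promoter table Ifit1 and Ifit3 hold the paired ISREs printed above. Neither of the 2 Ifit2 entries holds those letters within the bases searched, though Ifit2 does hold the GAS letters. Whether these letters bear on the signals of the 3 genes was not tested.

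The other 6 effectors were also higher on day 14 than on day 2, Ifi35 2.83-fold and Nmi 4.19-fold. Usp18, the protease that removes ISG15 from proteins and damps the type I receptor, was under the floor on days 2 and 3 and read 48.1 on day 5 and 119 on day 14, 2.47-fold higher. Nmi, which interacts with STAT proteins, read 48.5, 46.1, 105 and 203 and was 2.27-fold higher on day 5 than on day 3. Ifi35, its binding partner, read 53.2, 91.8, 158 and 151. Ifitm3, a membrane protein that blocks entry of viruses, read 940.2, 1399, 2486 and 2374. Bst2, which tethers viruses to the cell surface, read 47.0, 71.7, 101 and 118. Neither passed 2-fold in a consecutive comparison, and both were 2.52-fold higher on day 14 than on day 2. Rsad2, which encodes viperin, read 128, 201, 188 and 298 on 1 probe set, while its other 2 probe sets were under the floor on every day, and with the mean over the 3 it did not pass 2-fold. With a common median, the whole-course calls of Bst2, Ifitm3, Ifi35, Rsad2 and Psmb9 were lost. Near the threshold, Igtp with 2.09-fold and Psmb9 with 2.11-fold were just inside it on day 5 against day 3, Irf1 with 1.92-fold lay just outside it, and on day 14 against day 5 Igtp lay just outside with 1.98-fold.

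Interferon genes lay under the floor, while most receptors and kinases of the pathway were above it. Ifnb1 and Ifng, for interferon beta and interferon gamma, were under the floor on every array, as were 12 of the 13 ligand and related cytokine genes with a probe set, the exception being Il18. Ifnar1, a chain of the type I receptor, read 108, 130.3, 217 and 193 on days 2, 3, 5 and 14. Ifngr1, a chain of the interferon gamma receptor, read 151, 269, 397 and 351. Both receptor chains were above the floor from day 2 and highest on day 5. Of 19 receptor and signalling genes with a probe set, 16 were measured on day 14 against day 2. Called higher were 10 and lower none, against 22.8% and 14.8% of all genes. Among the 13 above the floor on day 2, 8 were higher, against 18% of such genes. Among the 3 under it, 2 were higher, against 44.3%. Under quantile normalization 5 were higher and none lower, against 18.0% and 16.8% of all genes. With a common median 3 were higher and 1 lower, against 11.1% and 36%. Socs3, a feedback inhibitor of JAK kinases (17.9-fold), Stat3 (8.20-fold) and Irf8 (at least 3.82-fold) had the largest ratios.

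Other interferon-induced genes, from a list beside the members, were in part too dim to measure. Of the 47 with a probe set, 15 were under the floor on both arrays of day 14 and day 2. On day 14, 16 were higher, 2 were lower and 14 were not past 2-fold, with a median log2 ratio of 1.09 for the 32 measured. Of these 32, 27 were under the floor on day 2 and could only be higher. Called higher were 15 of these 27, against 44.3% of all such genes. Of the 5 above the floor on day 2, 1 was higher, against 18% of such genes, and 2 were lower. With a common median 11 genes of the list were higher and 3 lower on day 14 than on day 2. On day 5 against day 3, 5 were higher and 1 lower with that scaling. Parp9 (at least 5.85-fold), Lgals3bp (at least 5.56-fold), Irgm2 (at least 5.18-fold), Gbp3 (at least 4.40-fold) and Gbp7 (at least 4.33-fold) led. The 2 lower genes were Samhd1, an enzyme that breaks down nucleotides (2.84-fold), and the RNA exonuclease gene Pnpt1 (2.43-fold). On day 5 against day 3, 9 of the list were higher and none lower, against 11.6% and 5.97% of all genes. Among the 9 were Lgals3bp (4.73-fold) and Cxcl10, a chemokine (2.70-fold). Of the 15 above the floor on day 3, 6 were higher, against 10.4% of such genes. Of the 13 under it, 3 were higher, against 24.7%. Of 11 nucleic acid sensors and adaptors with a probe set, 6 were measured on day 14 against day 2. Higher were 2 of them, Myd88 (6.89-fold) and Tlr3 (at least 2.42-fold), against 22.8% of all genes. Among the 5 above the floor on day 2, 1 was higher, against 18% of such genes. After scaling to a common median 1 was higher and 1 lower.

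Some lists of markers of other cells also had higher signals on later days, at steps that differed between the lists. Macrophage markers, 24 with a probe set, numbered 4, 9, 16 and 16 above the floor on days 2, 3, 5 and 14, with summed signals of 435, 1545, 4544 and 3853. On day 3, 5 of the 9 measured macrophage markers were higher than on day 2, against 6.69% of all genes. On day 5, 10 of the 16 measured were higher than on day 3 and none was lower, against 11.6% and 5.97% of all genes. Of the 9 above the floor on day 3, 7 were higher on day 5, against 10.4% of such genes. Of the 7 under it, 3 were higher, against 24.7%. Csf1r, the macrophage growth factor receptor, was under the floor on day 2 and read 91.0, 316 and 269 on days 3, 5 and 14. Ptprc, the pan-leukocyte CD45, was above the floor on days 5 and 14 at 59.7 and 54.5, and Itgam was under it on every day. Of 8 class II genes with a probe set, none was above the floor on day 2 and 4 were on day 14, with summed signals of 81.2, 195, 778 and 1078 on days 2, 3, 5 and 14, and H2-Aa was 7.55-fold higher on day 5 than on day 3. Of 13 endothelial markers, 0, 2, 4 and 8 were above the floor, with summed signals of 196, 302, 468 and 1064, though Pecam1 and Cdh5 were under it on every day. None of the 4 endothelial markers measured on day 5 against day 3 was called. On day 14, 4 of the 8 measured were higher than on day 5, against 4.81% of all genes. Fibroblast markers, 18 with a probe set, numbered 7, 10, 12 and 13 above the floor, with summed signals of 3358, 7972, 21221 and 31427, and Pdgfra was above it on days 5 and 14 at 105 and 104. On day 5, 9 of the 13 measured fibroblast markers were higher than on day 3, against 11.6% of all genes. On day 14, 11 of 13 were higher than on day 2, against 22.8% of all genes, with a median log2 ratio of 2.54. These 11 included all 7 above the floor on day 2, against 18% of such genes, and 4 of the 6 under it, against 44.3%. Of 15 measured myogenic markers, 10 were higher and 2 lower on day 14 than on day 2, against 22.8% and 14.8% of all genes. Their median log2 ratio was 1.42. On day 5 against day 3, 3 of the myogenic markers were higher and 3 lower, against 11.6% and 5.97% of all genes. Of 7 dendritic cell markers, 1, 1, 1 and 2 were above the floor, and the 1 on every day was Bst2, which is also a member. No marker of these lists had a signal of exactly 0 on any array.

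Set beside these, the members' own summed signal was 3841, 5312, 11271 and 14595 on days 2, 3, 5 and 14, of which B2m and Ifitm3 make up a large part. Between day 5 and day 14 the macrophage sum was lower on day 14 and no macrophage marker was called, while Iigp1, Irgm1, Usp18 and Ifit2 were higher and the endothelial and fibroblast sums were higher. Bright genes weigh most in these sums: from day 5 to day 14 Lyz1 read 1980 and 1438, Dpt 1430 and 5877, and Gsn 3542 and 7234. The median log2 ratio was -0.13 for the 17 measured macrophage markers, of which 13 were lower and 4 higher. It was 0.09 for the 14 fibroblast and 0.80 for the 8 endothelial markers. Called higher at that step were the endothelial markers Tek, Cldn5, Esam and Vwf, the fibroblast markers Lum, Dpt, Gsn and Penk, and the class II gene H2-Ab1 (2.36-fold). RNA length was gauged from the control probe sets: the 3′ to 5′ signal ratio of Gapdh was 2.17, 1.88, 2.87 and 2.84 on days 2, 3, 5 and 14, and that of Actb was 1.80, 2.20, 2.19 and 2.14. The part of other cells and of RNA quality in the members' signals was not tested.

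**Figure D4:**
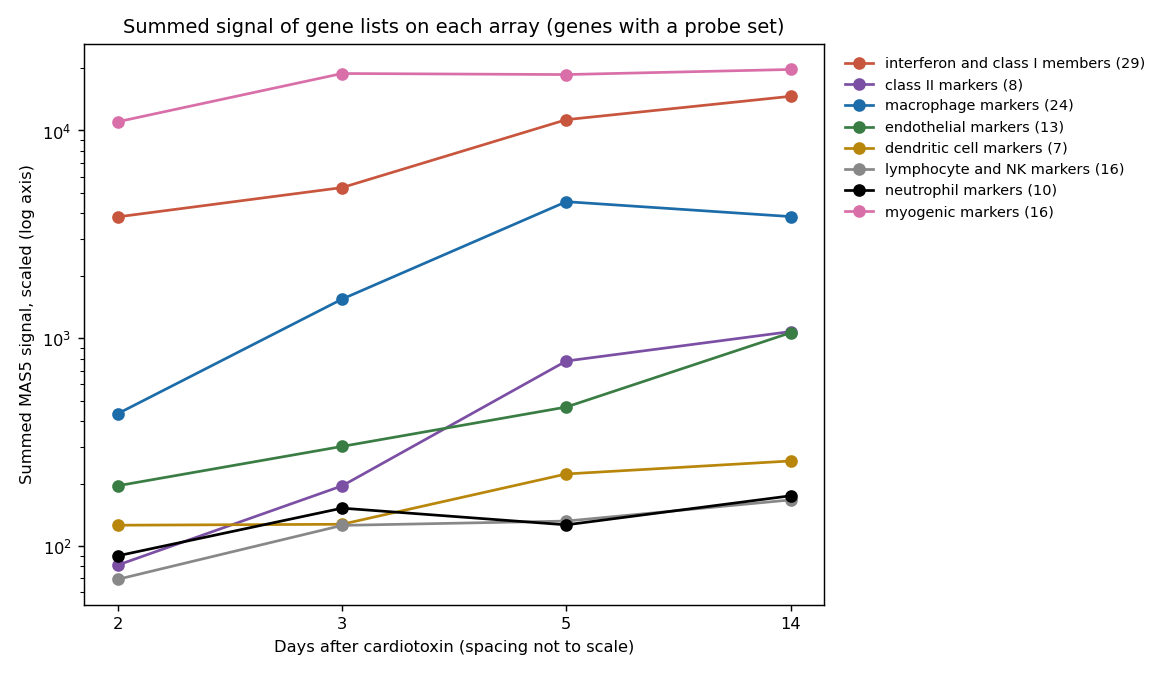
Summed scaled MAS5 signal (log axis, arbitrary units) of the members and of marker lists on the arrays of days 2, 3, 5 and 14, over all genes of a list with a probe set (their number in the legend), values under the floor included as measured. The sums of members, class II and macrophage genes are each higher on day 5 than on day 3, the macrophage sum is lower on day 14 than on day 5, and the lymphocyte and neutrophil sums stay at or under 175.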

How the data were processed

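The authors deposited 1 signal intensity for each of 22690 probe sets and 4 arrays, on a linear scale, made with MAS5 per the submitters' processing notes; the sources used here do not state its settings. Each array was scaled to a common 2% trimmed mean. The pooled median, 43.0, replaced lower values, and ratios are differences of log2 signals. A gene with several probe sets was read from the one with the highest mean log2 signal. Of the probe sets, 20393 had 1 symbol and 691 with several were left out. The gene IDs of 20364 were found in the RefSeq table (GRCm38.p6) and no symbol differed.

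Each of the 4 groups, set by the label for days after injury, has 1 array, so sizes and counts are given with no test, and precision is limited by the number of arrays. The members and gene lists were chosen with earlier results of these data known. All 31 members are accounted for, and in each other list up to 6 called genes with the largest ratio, plus the defining markers, could be named. Calr, Canx, Pdia3, Samhd1, Pnpt1 and Penk were named after their values were seen. The calling step was tested on simulated data, with changes larger than 2-fold planted in genes well above the floor and with little noise. This test says nothing about ratios near 2-fold or signals near the floor. Scaling, floor, probe set rule and call threshold were varied. Python 3.11.15, numpy 2.4.6 and pandas 2.3.3 were used.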

Additional observations from a re-analysis of the deposited data

How the results depend on the processing

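No paired analysis was possible because each day has a single array, so the days share 1 replicate number and fewer than 2 pairs exist, and for the same reason no replicate could be left out. Day 5 over day 2 and day 14 over day 3 were added after the data were seen. In the 3 consecutive comparisons and day 14 over day 2, 47 member ratios passed 2-fold. None of them changed sign under any of the 7 alternatives of scaling, floor and probe set under which it was measured. Of the 47, 27 were measured and fell short of 2-fold under at least 1. This count leaves out ratios with both arrays under the floor of an alternative. With the highest floor, the calls of Psmb8 and Ifit1 on day 14 over day 2 were lost in this way. So were those of Irf9 and Ifit3 on day 5 over day 3, and these calls are not among the 27. The cause of the losses was not tested beyond what each setting does by construction: a higher floor shortens every bound. Scaling to a common median moved the median log2 ratio of all genes for day 14 over day 2 to -0.57, and relative to it the members stood at 1.80, against 1.64 as reported. For day 5 over day 3, the members stood 0.96 to 1.05 above all genes under the 4 scalings.

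With a common median, the members' median log2 ratio was 1.23 for day 14 over day 2 and 0.16 for day 3 over day 2. With a floor of 9.97 (25th percentile) it was 2.604 for day 14 over day 2, 1.35 for day 3 over day 2 and 2.29 for day 5 over day 2. With a floor of 110.3 (65th percentile) it was 0.85 for day 14 over day 2, 0.80 for day 14 over day 3, 0.20 for day 14 over day 5, 0.83 for day 5 over day 2 and 0.69 for day 5 over day 3. With no floor and 16 added, it was 1.07 for day 3 over day 2 and 1.94 for day 5 over day 2. Members called higher with the 110.3 floor numbered 10 for day 14 over day 2, 9 for day 14 over day 3, 2 for day 14 over day 5, 1 for day 3 over day 2, 7 for day 5 over day 2 and 5 for day 5 over day 3. At 3-fold they numbered 15 for day 14 over day 2, 0 for day 14 over day 5, 2 for day 3 over day 2, 12 for day 5 over day 2 and 6 for day 5 over day 3. At 1.5-fold they numbered 13 for day 14 over day 5 and 10 for day 3 over day 2. Day 3 over day 2 gave 16 with the 9.97 floor, 13 with 16 added, and 2 higher and 1 lower as deposited, against 4 higher and 1 lower as reported. Members called lower numbered 1 for day 14 over day 2 (common median), 1 for day 14 over day 3 and for day 5 over day 2 (common median, quantile normalization and 1.5-fold), 2 for day 14 over day 5 (1.5-fold) and 0 for day 3 over day 2 (3-fold). Tapbp on day 3 over day 2 passed 2-fold under none of the 3 other scalings, and the calls of Tap1 and Rsad2 were lost with the mean of their probe sets. Signals near the floor limit most ratios: 16 of the 28 members on day 14 over day 2 are bounds.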
